A study of Oryctolagus cuniculus with 12 samples.

Results

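The enzymes that hydroxylate, fold and crosslink collagen were followed through normal skin, hypertrophic scar (HS) and treated scar in bulk RNA-seq of the rabbit ear. The group was defined by a list of 10 gene symbols, of which 9 had a row of their own among the 29587 gene rows of the expression table. These were the prolyl 4-hydroxylase alpha subunits P4HA1 and P4HA3, the lysyl hydroxylases PLOD1 and PLOD2, and the 5 lysyl oxidases LOX, LOXL1, LOXL2, LOXL3 and LOXL4. No row carried the tenth symbol, SERPINH1. The list groups genes by function and was chosen with earlier results of these data known. FPKM is fragments per kilobase, scaled by a library size for each sample. All 9 genes were among the 13287 that passed the filter on low values, which required an FPKM averaging 1 or more across all samples.

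The 12 samples came from wild-type (WT) female rabbits, with 3 rabbits in each of 4 groups, and all were harvested on day 43 after wounding of the scar groups. NS was ear skin of untreated rabbits kept as the control group, without scar lesions. HS was scar left without treatment. The drug-loaded MNs group received 1 patch per lesion on days 22, 29 and 36. These microneedles were made of a methacrylated gelatin that carried a prodrug of 5-fluorouracil acetic acid. The 5-Fu injection group received 0.1 mL with 120 μg of 5-fluorouracil per lesion on the same days. 5-fluorouracil is a pyrimidine analogue that blocks thymidylate synthesis. The scar model was a full-thickness wound from which the perichondrium was also taken, and the RNA came from the full thickness of the ear. Both skin faces and the cartilage between them could therefore contribute. In such bulk samples, fewer cells of a type and less RNA per cell cannot be told apart.

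Fibrillar collagen is modified at several steps before it bears load. In the endoplasmic reticulum, prolyl 4-hydroxylases make the 4-hydroxyproline that keeps the triple helix stable at body temperature, lysyl hydroxylases make the hydroxylysine used in sugar attachment and in mature crosslinks, and HSP47, the product of SERPINH1, binds the folded helix as a chaperone. Outside the cell, the copper-dependent lysyl oxidases convert lysine and hydroxylysine to reactive aldehydes, from which the crosslinks of collagen and elastin form. In skin, hydroxylysine-derived crosslinks mediated by the telopeptide lysyl hydroxylase PLOD2 are known as a feature of fibrotic collagen.

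Each of the 9 symbols stood on 1 row, with 170 to 14733 reads per sample once reads were counted back from the FPKM values. In the coordinates of the deposited table, whose genome build was not given in the sources used here, P4HA1 (ENSOCUG00000009739) lay at chr18:14358023-14437914 and P4HA3 (ENSOCUG00000010111) at chr1:142283478-142321062. PLOD1 (ENSOCUG00000007960) lay on scaffold GL018739 at 2095679 to 2128426 and PLOD2 (ENSOCUG00000001461) at chr14:39741662-39841265. LOX (ENSOCUG00000003313) lay at chr3:6330229-6342271, LOXL3 (ENSOCUG00000027040) at chr2:111989247-112009289 and LOXL4 (ENSOCUG00000004988) at chr18:46350107-46367892. LOXL1 (ENSOCUG00000000978) lay on scaffold GL019108 at 1684 to 18083, and LOXL2 (ENSOCUG00000014596) on scaffold GL018937 at 158194 to 353404. All 9 were annotated as protein-coding.

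Each sample held between 10521472 and 14043667 reads on genes. The summed FPKM of 5 fibroblast markers found (of 6 listed: DCN, LUM, THY1, FAP and PDGFRB, with PDGFRA not found by symbol) was 797 to 1122 in NS, 4959 to 5983 in HS, 2915 to 4338 in drug-loaded MNs and 1398 to 3669 in 5-Fu injection. The summed FPKM of 10 chondrocyte markers varied within every group, from 1720 to 3573 in NS, 522 to 5179 in HS, 919 to 5389 in drug-loaded MNs and 509 to 5768 in 5-Fu injection. The summed FPKM of 5 keratinocyte markers was 2373 to 3961 in NS, 1370 to 1976 in HS, 3792 to 8980 in drug-loaded MNs and 2928 to 5528 in 5-Fu injection. No gene of these 3 lists was at 0 as a group mean. The summed FPKM of 3 lymphocyte markers was 2.46 to 9.06 in NS, 1.42 to 1.92 in HS, 1.82 to 6.40 in drug-loaded MNs and 4.53 to 49.7 in 5-Fu injection. That of 5 macrophage markers was 109 to 238, 176 to 287, 124 to 230 and 198 to 389 in the same order, and that of 4 endothelial markers was 243 to 306, 305 to 334, 265 to 334 and 330 to 378. The sum of 4 smooth muscle markers was 2063 in NS replicate 3 and 420 and 347 in the other NS samples, with 327 to 490 in HS, 297 to 385 in drug-loaded MNs and 467 to 1009 in 5-Fu injection. The samples thus held signal from dermis, epidermis and cartilage, and the part of these shifts in the results below was not tested.

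To ask how the enzyme genes of scar differed from those of normal skin, HS was compared with NS. P4HA1, P4HA3, PLOD1, LOXL1 and LOXL2 were higher in HS, by 2.55-fold to 10.9-fold in mean FPKM, whereas LOX, LOXL3, LOXL4 and PLOD2 did not pass the test. A gene was called at a Benjamini-Hochberg adjusted p under 0.05 (limma, over all genes tested) together with an absolute log2 fold change above 1. By this rule 5 of 9 enzyme genes were called higher and 0 lower, beside 3.53% of all genes tested called higher and 1.48% called lower. Over all genes the balance depended on scaling. It was 469 higher to 196 lower as deposited and 311 higher to 749 lower after FPKM was rescaled to total reads, which put the median gene at -0.33 on the log2 scale, and 4 of the 5 enzyme genes were still called higher then. The same 5 genes had groups that did not overlap, beside 18.0% of all genes that were higher in every HS sample. The median log2 fold change was 1.33 over the 9 genes and -0.01 over all genes tested. The plot of FPKM by sample shows each of the 9 genes.

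**Figure D1:**
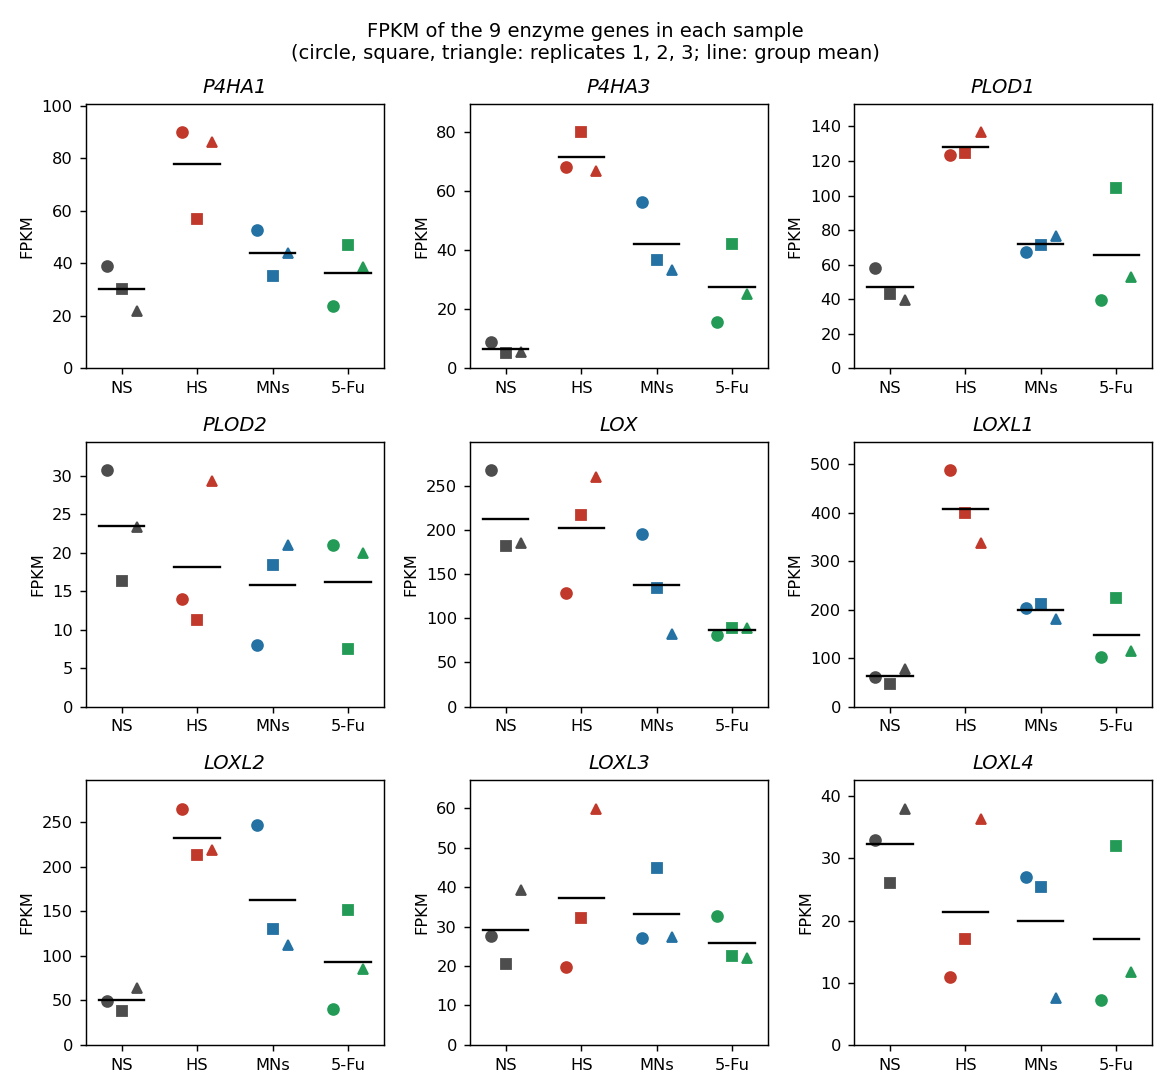
FPKM (linear axis from 0, a scale of its own in each panel) of the 9 enzyme genes in the 3 samples of each group (MNs, drug-loaded MNs; 5-Fu, 5-Fu injection); circles, squares and triangles are replicates 1, 2 and 3, and lines are group means. P4HA3, LOXL1, LOXL2, PLOD1 and P4HA1 show an HS group wholly above NS, whereas the HS and NS points of LOX, LOXL3, LOXL4 and PLOD2 overlap.

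P4HA3 and P4HA1 encode catalytic alpha subunits of prolyl 4-hydroxylase. P4HA3 stood at an FPKM of 8.90, 5.32 and 5.51 in NS replicates 1 to 3, 68.2, 80.1 and 66.8 in HS, 56.5, 36.7 and 33.5 in drug-loaded MNs, and 15.8, 42.2 and 25.2 in 5-Fu injection. All 9 wounded samples lay above all 3 NS samples, and all 3 HS samples lay above all 6 treated samples. The log2 fold change of HS against NS was 3.29 (SE 0.32, adjusted p = 0.000748), the highest of the 9 genes. P4HA1, the widely expressed subunit, stood at 39.1, 30.3 and 21.9 in NS, 90.1, 56.7 and 86.3 in HS, 52.7, 35.4 and 44.1 in drug-loaded MNs, and 23.6, 47.0 and 38.6 in 5-Fu injection. Every HS sample was above every other sample, and the NS, drug-loaded MNs and 5-Fu injection samples overlapped. Its log2 fold change of HS against NS was 1.33 (SE 0.29, adjusted p = 0.0198). This was the least secure of the 5 calls. It was lost when FPKM was rescaled to the total of reads on genes (log2 fold change 0.98), and with each of NS replicates 2 and 3 and HS replicates 1 and 3 left out (adjusted p up to 0.0771).

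PLOD1 hydroxylates lysine in the helical part of collagen. Its FPKM was 57.8, 43.2 and 39.6 in NS, 123, 125 and 137 in HS, 67.3, 71.7 and 76.6 in drug-loaded MNs, and 39.7, 104 and 52.8 in 5-Fu injection. The HS samples were the 3 highest of the 12, and the 3 samples of drug-loaded MNs lay between HS and NS without touching either. The log2 fold change of HS against NS was 1.45 (SE 0.28, adjusted p = 0.0121). PLOD2, which acts on the telopeptides, stood at 30.7, 16.3 and 23.3 in NS, 14.0, 11.3 and 29.3 in HS, 7.97, 18.5 and 21.0 in drug-loaded MNs, and 21.0, 7.46 and 20.03 in 5-Fu injection. All 4 groups of PLOD2 overlapped, and HS held both low and high samples. The log2 difference of HS against NS was -0.42, with a 95% interval of -1.46 to 0.61 (adjusted p = 0.631), so that this comparison leaves differences in either direction within the interval.

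LOX, the founding member of the lysyl oxidase family, was the most abundant of the 9 genes in NS. Its FPKM was 267, 182 and 186 in NS, 128, 216 and 260 in HS, 195, 134 and 82.7 in drug-loaded MNs, and 80.9, 88.4 and 89.3 in 5-Fu injection. NS and HS overlapped, whereas the 3 samples of 5-Fu injection lay below all 6 of them. The log2 difference of HS against NS was -0.11, with a 95% interval of -0.81 to 0.59 (adjusted p = 0.874). LOXL1, a family member needed for elastic fibre upkeep, stood at 61.3, 47.5 and 77.7 in NS, 487, 399 and 336 in HS, 203, 211 and 181 in drug-loaded MNs, and 102, 224 and 114 in 5-Fu injection. The 3 HS samples stood above all others, the 3 NS samples below all others, and the treated samples between them. Its log2 fold change of HS against NS was 2.71 (SE 0.28, adjusted p = 0.000965).

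LOXL2, LOXL3 and LOXL4 share scavenger receptor domains that LOX and LOXL1 lack. The FPKM of LOXL2 was 49.1, 37.6 and 63.8 in NS, 265, 213 and 219 in HS, 247, 130 and 113 in drug-loaded MNs, and 40.8, 151 and 85.3 in 5-Fu injection. All HS samples exceeded all NS samples, drug-loaded MNs replicate 1 reached the HS range, and 5-Fu injection replicate 1 reached the NS range. The log2 fold change of HS against NS was 2.21 (SE 0.42, adjusted p = 0.0111). LOXL3 stood at 27.7, 20.4 and 39.3 in NS, 19.8, 32.1 and 59.9 in HS, 27.2, 45.0 and 27.4 in drug-loaded MNs, and 32.7, 22.5 and 22.1 in 5-Fu injection. Its groups all overlapped, with a log2 difference of HS against NS of 0.25 (95% interval -0.56 to 1.07, adjusted p = 0.723). LOXL4 stood at 32.9, 26.1 and 38.0 in NS, 10.9, 17.1 and 36.4 in HS, 27.1, 25.4 and 7.48 in drug-loaded MNs, and 7.30, 31.9 and 11.7 in 5-Fu injection. The NS samples were close together and the other groups were spread, each with at least 1 sample inside the NS range. The log2 difference of HS against NS was -0.72 (95% interval -2.00 to 0.56, adjusted p = 0.501).

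HS replicate 3, the HS sample with the highest chondrocyte marker sum (5179, against 522 and 1062 in the others), was also the highest HS sample in LOX, LOXL3, LOXL4 and PLOD2, the 4 genes not called between HS and NS, and in PLOD1, which was called. The treated samples with the highest chondrocyte marker sums, drug-loaded MNs replicate 3 (5389) and 5-Fu injection replicate 1 (5768), were also the highest of their groups in PLOD2, but the lowest in LOX and LOXL4. In LOXL3 the former was the middle and the latter the highest sample of its group, and in PLOD1 the former was the highest and the latter the lowest. NS replicate 1, with the highest sum in NS (3573), was the highest NS sample in PLOD2, LOX and PLOD1 and the middle one in LOXL3 and LOXL4. The part of cartilage in these values was not tested. Because HS replicate 3 was the highest HS sample in the 4 genes not called, leaving it out had to lower their log2 differences. Without it, the log2 difference of HS against NS was -0.32 for LOX, -0.15 for LOXL3, -1.17 for LOXL4 and -0.81 for PLOD2. The calls for LOXL1, LOXL2, PLOD1 and P4HA3 were kept in all 9 other settings and with each of the 12 samples left out in turn. The plot of differences between groups gives the intervals of all 9 genes.

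**Figure D2:**
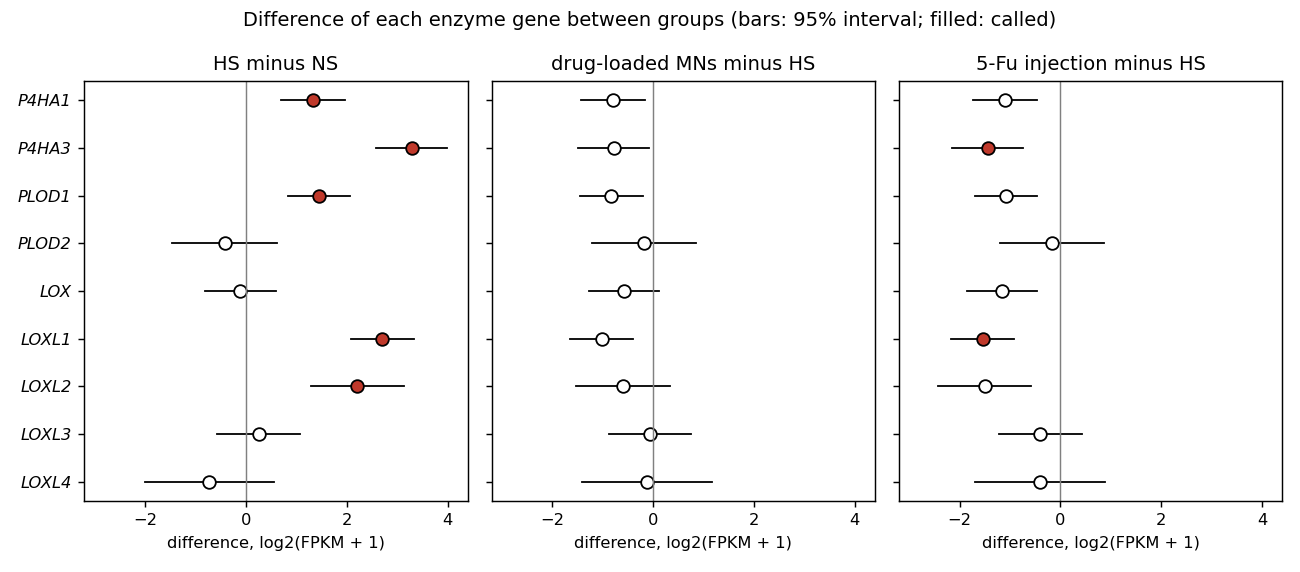
Difference of each enzyme gene on the log2(FPKM + 1) scale for HS minus NS, drug-loaded MNs minus HS and 5-Fu injection minus HS; points are estimates from limma, bars are 95% intervals and filled points were called. In HS minus NS, 5 points are filled and lie above 0. In drug-loaded MNs minus HS none is filled and all 9 lie below 0, and in 5-Fu injection minus HS only LOXL1 and P4HA3 are filled.

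The make-up of the families was also compared. FPKM is scaled by gene length, so the levels of different genes can be added. The summed FPKM of the 5 lysyl oxidases in NS was 385 ± 64.4 (mean ± SD of 3 samples, as for all values given in this way). It was 900 ± 19.3 in HS, 552 ± 144 in drug-loaded MNs and 368 ± 133 in 5-Fu injection. LOX made up 61.0, 58.0 and 45.9% of this sum in NS and 14.1, 24.6 and 28.5% in HS. It made up 27.9, 24.6 and 20.1% in drug-loaded MNs and 30.6, 17.1 and 27.7% in 5-Fu injection. The share of LOX was thus lower in all 9 scar samples, treated or not, than in any NS sample. The share of LOXL1 was 16.1 ± 2.7% in NS, 45.3 ± 8.3% in HS, 37.3 ± 7.6% in drug-loaded MNs and 39.1 ± 4.0% in 5-Fu injection. The summed level was 264, 518 and 322 in 5-Fu injection and 438, 314 and 404 in NS, so the 2 groups overlapped. These sums depend on the scaling between samples and were not tested. The shares do not depend on it, and the make-up of the 2 groups differed.

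**Figure D3:**
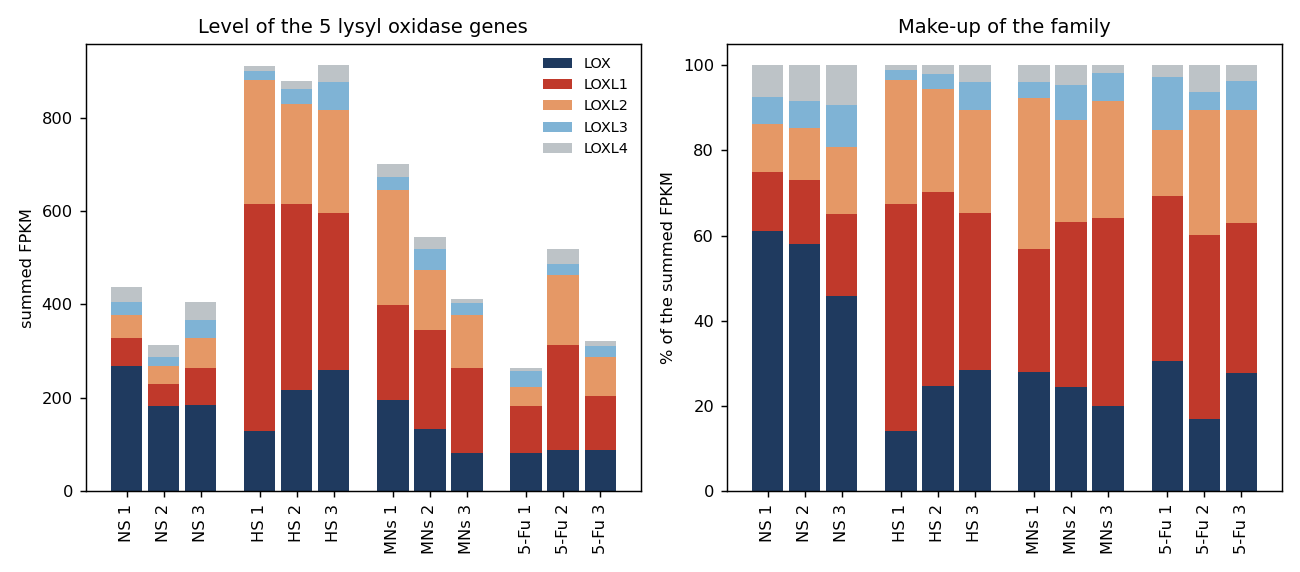
Left, FPKM of LOX, LOXL1, LOXL2, LOXL3 and LOXL4 stacked for each of the 12 samples; right, the same values as a percentage of their sum in that sample. LOX takes 45.9 to 61.0% of the sum in the 3 NS samples and 14.1 to 30.6% in the 9 scar samples.

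The same was measured as ratios within a sample, which do not depend on the scaling between samples. The ratio of LOXL1 to LOX, chosen after the values were seen, was 0.229, 0.261 and 0.419 in NS and 3.80, 1.85 and 1.29 in HS, with a log2 difference of 2.83. The ratio of PLOD2 to PLOD1 was 0.532, 0.378 and 0.589 in NS and 0.113, 0.0903 and 0.214 in HS, with a log2 difference of -1.92. The ratio of P4HA3 to P4HA1 was 0.227, 0.176 and 0.252 in NS and 0.757, 1.41 and 0.774 in HS, with a log2 difference of 2.12. These 3 ratios did not overlap between NS and HS. The share of all gene pairs that would do so is not given, and 33.3% of single genes tested did not overlap in either direction. Each of the 3 ratios also holds a gene called between HS and NS, so they restate those calls in part. The ratio of LOX to LOXL4 overlapped, with a log2 difference of 0.65. In a two-sided exact permutation test 3 samples against 3 cannot give a p below 0.1, which was the p of each of these 3 differences, and 0.533 after Benjamini-Hochberg adjustment over 16 tests. None of the 4 ratios separated either treated group from HS or the treated groups from each other. P4HA3 was also taken as a share of the summed P4HA1 and P4HA3, a sum that leaves out the alpha subunit P4HA2. It made up 17.9 ± 2.7% in NS, 48.4 ± 8.8% in HS, 48.6 ± 4.7% in drug-loaded MNs and 42.3 ± 4.3% in 5-Fu injection. Of the summed PLOD1 and PLOD2, PLOD2 made up 33.1 ± 5.0% in NS, 12.0 ± 5.0% in HS, 17.5 ± 6.0% in drug-loaded MNs and 22.9 ± 14.5% in 5-Fu injection.

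The order of the enzyme genes by mean FPKM also differed. In NS, LOX (212 ± 48.2) stood above the rest without overlap, followed by LOXL1, LOXL2 and PLOD1, whose neighbours overlapped, then by LOXL4, P4HA1, LOXL3 and PLOD2, whose neighbours overlapped. P4HA3 (6.58 ± 2.01) was the lowest, below every sample of PLOD2. In HS, LOXL1 (408 ± 75.6) came first without overlap, followed by LOXL2 (232 ± 28.5), LOX (202 ± 67.2) and PLOD1 (128 ± 7.4), which overlapped as neighbours, then by P4HA1 (77.7 ± 18.3) and P4HA3 (71.7 ± 7.3), which overlapped. LOXL3, LOXL4 and PLOD2 followed, each overlapping the next. In both treated groups LOXL1 was again first, but it overlapped LOXL2, and in 5-Fu injection no neighbours in the order were separate.

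To compare treated with untreated scar, drug-loaded MNs was first set against HS. The mean of each of the 9 genes was lower in drug-loaded MNs, with ratios of mean FPKM from 0.487 for LOXL1 to 0.933 for LOXL4, but none passed the test. Of the 9 genes, 0 were called lower, beside 0% of all genes tested, and 0 were called higher. At an unadjusted p under 0.05 there were 4, beside 8.90% of all genes in either direction. The same 4 genes had every drug-loaded MNs sample below every HS sample, beside 10.3% of all genes tested. These were LOXL1 (log2 difference -1.02, adjusted p = 0.310), PLOD1 (-0.83, adjusted p = 0.416), P4HA1 (-0.79, adjusted p = 0.470) and P4HA3 (-0.78, adjusted p = 0.525). LOXL2 differed by -0.59 (95% interval -1.52 to 0.34) and LOX by -0.58 (95% interval -1.28 to 0.12). The directions of LOXL3 (-0.06) and LOXL4 (-0.12) turned to 0.08 and 0.03 when FPKM was rescaled to total reads, a scaling under which the median of all genes stood at 0.11. The median over the 9 genes was -0.59, and over all genes tested -0.02.

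After 5-Fu injection, LOXL1 and P4HA3 fell against HS. LOXL1 had a log2 fold change of -1.54 (SE 0.28, adjusted p = 0.0267), and P4HA3 of -1.44 (SE 0.32, adjusted p = 0.0368). These were 2 of 9 genes called lower, beside 1.78% of all genes tested, and 0 were called higher. Over all genes, 68 were called higher and 236 lower as deposited, and 125 higher and 160 lower after the rescaling to total reads, under which both enzyme genes were still called. LOX, LOXL2, PLOD1 and P4HA1 did not pass, although with LOXL1 and P4HA3 they made 6 of 9 genes whose 5-Fu injection samples all lay below all HS samples, beside 16.4% of all genes tested. Their log2 differences were -1.16 for LOX (adjusted p = 0.0615), -1.50 for LOXL2 (adjusted p = 0.0645), -1.08 for PLOD1 (adjusted p = 0.0549) and -1.10 for P4HA1 (adjusted p = 0.0551). LOXL3 differed by -0.40, LOXL4 by -0.40 and PLOD2 by -0.17, with 95% intervals that held 0. The median over the 9 genes was -1.10, and 0.02 over all genes tested.

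The count of 2 rested on the fit and on single samples. It was 0 when only the 2 groups compared entered the fit, 0 when replicate numbers entered as a block, 1 without the filter on low values (P4HA3 was lost) and 4 with a mean FPKM of at least 5. It was 0 without any 1 of the 3 HS samples or 5-Fu injection replicates 1 or 3, and 5 without 5-Fu injection replicate 2. It was 1 without NS replicate 1 and without drug-loaded MNs replicate 2, which stand outside the comparison, and P4HA3 was the call lost in both. It was 3 without drug-loaded MNs replicate 1 and without replicate 3, where LOX was gained, and 3 with quantile normalization, where PLOD1 was gained. 5-Fu injection replicate 2 had the highest value of its group in LOXL1, LOXL2, LOXL4, PLOD1, P4HA1 and P4HA3, and also the highest fibroblast marker sum (3669, against 1545 and 1398). The part of fibroblast content in these values was not tested.

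Both treated groups were then compared with NS and with each other. These comparisons share samples with those above. Against NS, LOXL1 (log2 fold change 1.68, SE 0.28, adjusted p = 0.0242) and P4HA3 (2.51, SE 0.32, adjusted p = 0.0160) were called higher in drug-loaded MNs, 2 of 9 beside 0.790% of all genes tested. The call of LOXL1 was lost with the replicate number as a block and with any of NS replicates 1 and 2 or of the 3 drug-loaded MNs samples left out (adjusted p up to 0.104). The call of P4HA3 was lost without NS replicate 2 and without drug-loaded MNs replicate 3 (adjusted p up to 0.0895). In 4 genes, LOXL1, LOXL2, PLOD1 and P4HA3, every drug-loaded MNs sample lay above every NS sample, beside 11.5% of all genes.

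For 5-Fu injection against NS, 0 of 9 were called higher, beside 0.00753% of all genes tested, and 0 lower. At an unadjusted p under 0.05 there were 3, beside 14.9% of all genes, and the same 3 did not overlap, beside 18.8% of all genes. P4HA3 differed by 1.85 on the log2 scale (adjusted p = 0.0769) and LOXL1 by 1.16 (adjusted p = 0.147), both higher in 5-Fu injection, and LOX by -1.26 (adjusted p = 0.152), lower in all 3 samples of 5-Fu injection than in any NS sample.

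When drug-loaded MNs was set against 5-Fu injection, 0 of 9 genes were called, beside 0% of all genes tested called higher. By limma, 0 had an unadjusted p under 0.05, beside 15.1% of all genes, and 0 had groups that did not overlap, beside 17.1%. The mean was higher in drug-loaded MNs for 8 of 9 genes, PLOD2 being the exception (log2 difference -0.01). LOXL2 showed the highest difference, 0.91 on the log2 scale with a 95% interval of -0.01 to 1.84, so that these data do not show the treatments to act alike on these genes.

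SERPINH1 could not be followed by symbol. Rows without a symbol that the table describes as Serpin H1 numbered 3, of which ENSOCUG00000026029 (chr1:141171998-141175283) and ENSOCUG00000032044 (chr1:141175599-141179718) were neighbours and the other was ENSOCUG00000003298 (chr19:35832459-35834474). ENSOCUG00000026029 had an FPKM of 381 ± 113 in NS, 1011 ± 274 in HS, 610 ± 88.8 in drug-loaded MNs and 529 ± 256 in 5-Fu injection. ENSOCUG00000032044 had 149 ± 40.8 in NS, 444 ± 98.2 in HS, 224 ± 34.2 in drug-loaded MNs and 171 ± 81.5 in 5-Fu injection, and ENSOCUG00000003298 had 24.9 ± 4.9, 73.1 ± 21.3, 44.0 ± 11.9 and 34.98 ± 19.2 in the same order. In each of the 3 rows, all HS samples lay above all NS and all treated samples. Of all genes tested, 18.0% were higher in every HS sample than in every NS sample. Every drug-loaded MNs sample lay below every HS sample in 10.3% of genes, and every 5-Fu injection sample did so in 16.4%. Whether these rows are parts of 1 gene or near copies that share reads is uncertain, so their levels were not added and no test is given for them. The lysyl hydroxylase LH3 was likewise found only by description, on 2 neighbouring rows. ENSOCUG00000021812 had 33.8 ± 8.1 in NS and 52.8 ± 14.6 in HS with overlapping samples, and ENSOCUG00000037671 had 14.2 ± 1.6 in NS and 26.5 ± 5.1 in HS without overlap.

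The transcript of the main substrate differed between NS and HS by more than that of any of the 9 enzymes. COL1A1, the alpha 1 chain of type I collagen, had an FPKM of 772 ± 108 in NS, 15711 ± 3134 in HS, 7390 ± 1398 in drug-loaded MNs and 3904 ± 4608 in 5-Fu injection. Per 1000 FPKM of COL1A1, LOX stood at 258 to 298 in NS, 10.1 to 16.8 in HS, 14.3 to 24.0 in drug-loaded MNs and 9.59 to 76.8 in 5-Fu injection. PLOD1 stood at 55.5 to 64.5 in NS and 6.58 to 9.70 in HS, and P4HA1 at 30.6 to 43.7 in NS and 2.99 to 7.08 in HS. For all 3 genes the enzyme transcript per collagen transcript was lower in every HS sample than in any NS sample. Since COL1A1 was so much higher in HS, a gene at an unchanged level would also be lower per COL1A1. The share of all genes with lower ratios is not given, so these ratios show nothing particular to the enzymes. P4HA3 showed the smallest fold gap of the 9 genes, with 7.55 to 9.93 in NS and 4.22 to 5.36 in HS, which did not overlap. LOXL1 stood at 67.3 to 109 in NS and 21.1 to 38.3 in HS. In 5-Fu injection the ratios were spread widely, as was COL1A1 itself, and for P4HA1 they ran from 5.10 to 26.8. These ratios were a description and were not tested.

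**Figure D4:**
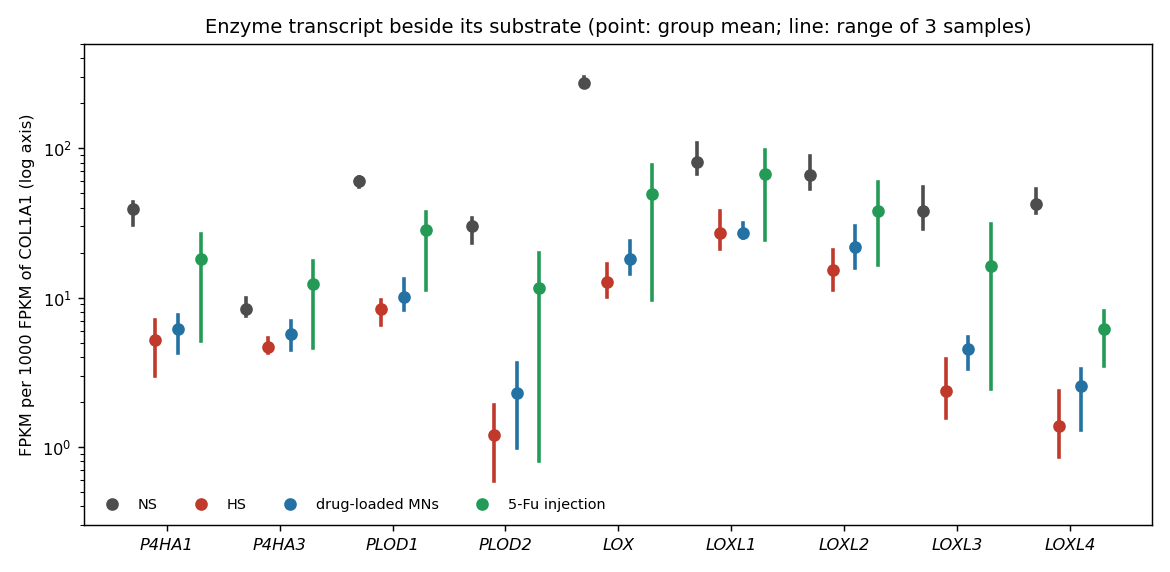
FPKM of each enzyme gene per 1000 FPKM of COL1A1 in the same sample (log axis), for the 4 groups named in the key; points are group means and lines span the 3 samples. Each HS range lies below the NS range of the same gene, for example 4.22 to 5.36 against 7.55 to 9.93 for P4HA3 and 10.1 to 16.8 against 258 to 298 for LOX. COL1A1 itself was far higher in HS than in NS, so a gene at an unchanged level would also lie lower in HS.

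The other genes of the pathway were taken from 5 lists chosen by function. Among the collagen synthesis and folding partners of the endoplasmic reticulum, 21 of 32 listed symbols were found and tested, of which 11 were higher in HS than in NS, 1 was lower and 9 did not pass (median log2 fold change 1.01). The counts of this and the next 4 lists stand beside 3.53% of all genes called higher and 1.48% called lower. FKBP10, a prolyl isomerase that assists PLOD2 in telopeptide hydroxylation, rose by 2.36 on the log2 scale (adjusted p = 0.00293). The transcription factor CREB3L1, which drives type I collagen in bone, rose by 2.35 (adjusted p = 0.0102). P3H3, of the prolyl 3-hydroxylase family, rose by 1.67 (adjusted p = 0.00197) and the isomerase FKBP7 by 1.65 (adjusted p = 0.0222). CRTAP and PPIB, partners in the prolyl 3-hydroxylation complex, rose by 1.08 and 1.04. The gene that fell was P3H2, a prolyl 3-hydroxylase that acts on basement membrane collagen, with a log2 fold change of -1.16 (adjusted p = 0.0133), named after its value was seen. P4HA2, the remaining alpha subunit of prolyl 4-hydroxylase and also named after its value was seen, rose from 44.7 ± 11.5 to 119 ± 6.3 (log2 fold change 1.42, adjusted p = 0.0115).

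Of 11 genes tested for procollagen export and propeptide removal, 5 were higher in HS, 0 were lower and 6 did not pass (median 0.43). PCOLCE, which enhances removal of the C-propeptide, rose by 2.74, and the N-proteinase ADAMTS2 by 2.57. The C-proteinase BMP1, which also activates pro-LOX, rose by 1.82, and the coat protein SEC23A by 1.24. Of 8 fibrillar collagen chains tested, 5 were higher, 0 were lower and 3 did not pass (median 3.23). COL1A1 rose by 4.34, COL1A2 by 4.18, COL3A1 by 3.95 and COL5A2 by 3.75 on the log2 scale. COL2A1, the cartilage collagen, did not pass (-0.70, adjusted p = 0.757).

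Of 9 partners of lysyl oxidase and genes of copper supply, 3 were higher in HS, 0 were lower and 6 did not pass (median 0.85). The matricellular protein POSTN, which binds BMP1 and favours LOX activation, rose by 2.90 (adjusted p = 0.0155). The elastic fibre protein FBLN5, a partner of LOXL1, rose by 2.12 (adjusted p = 0.00130), and the copper chaperone ATOX1 by 1.66 (adjusted p = 0.0144). FN1 (0.60) and the copper pump ATP7A (0.33), which loads copper in the secretory pathway, did not pass. LOX, PLOD2 and P4HA1 are known targets of the hypoxia response. Of 9 other genes of that response, which include the regulator HIF1A, 1 was higher, 1 was lower and 7 did not pass (median -0.05). These stand beside the same 3.53% and 1.48% of all genes. The gene called higher was HIF1A itself, the oxygen-regulated transcription factor subunit, by 1.73 (adjusted p = 0.0322). The glucose transporter SLC2A1 had a log2 fold change of -1.38 (adjusted p = 0.0140). The plot of the 5 lists beside the 9 enzyme genes shows these values.

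**Figure D5:**
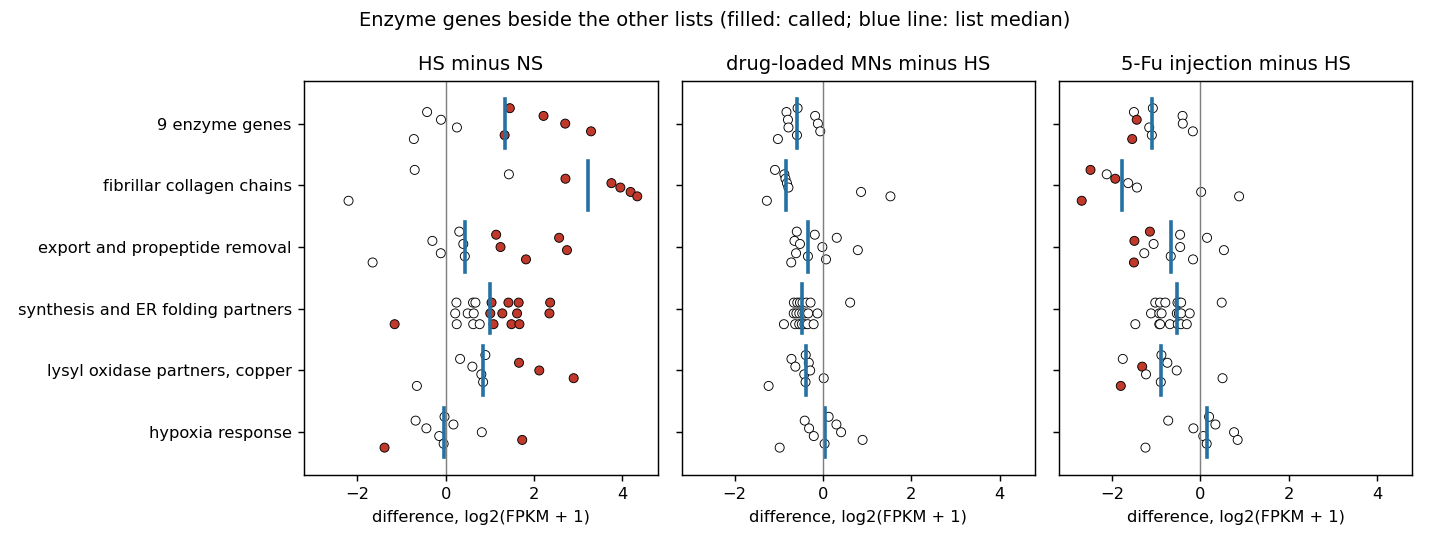
Difference of each gene on the log2(FPKM + 1) scale for HS minus NS, drug-loaded MNs minus HS and 5-Fu injection minus HS, for the 9 enzyme genes and 5 lists of related genes; each point is a gene (vertical spread only separates the points), filled points were called and blue lines are list medians. In HS minus NS the median of the fibrillar collagen chains (3.23) lies right of that of the enzyme genes (1.33), and that of the hypoxia response genes (-0.05) lies near 0.

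In drug-loaded MNs against HS, 0 genes of these 5 lists were called, and the list medians ran from -0.83 for the fibrillar chains to 0.04 for the hypoxia response genes. In 5-Fu injection against HS, 8 genes of these lists were called lower, beside 1.78% of all genes, and 0 higher. None of these calls held with only the 2 groups in the fit or without HS replicate 2 or 3, where 0 of all genes tested were called. Of the fibrillar chains, COL1A1 fell with a log2 fold change of -2.69, COL5A2 of -2.49 and COL3A1 of -1.93. Of the export and propeptide list, SEC24D fell with -1.50, ADAMTS2 with -1.49 and SEC23A with -1.14. Of the partners of lysyl oxidase, FBLN5 fell with -1.80 (adjusted p = 0.0184) and the copper importer SLC31A1 with -1.32 (adjusted p = 0.0362). None of the 21 folding partners in the endoplasmic reticulum was called. Their median was -0.53, beside -1.10 for the 9 enzyme genes.

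Outside these lists, the genes with a symbol whose pattern was most like the mean pattern of the 9 enzyme genes were NLGN2, SAR1A, ALDH18A1, SPATS2L and EPB41L2. Their root mean square differences from it over the 12 samples, on the log2 scale after centring each gene, were 0.148, 0.154, 0.160, 0.166 and 0.172. The centred mean of the 9 genes was highest in HS replicate 3 (0.96) and lowest in NS replicate 2 (-0.72).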

How the data were processed

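The authors deposited 1 table of FPKM values for the 12 samples, with Ensembl identifiers, symbols and gene lengths. Aligner, counter, annotation release and genome build were not given in the sources used here. Multiplied by gene length, 100% of the deposited FPKM values were whole multiples of a step per sample (within 0.02), so that reads on genes could be counted back. For a 1-kilobase gene, a single read gave 0.0768 to 0.0972 FPKM. The members and lists were chosen with earlier results of these data known.

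Groups were compared with limma 3.58.1 in R 4.3.3 on log2(FPKM + 1), in 1 model of the 4 groups with trended moderation. Genes needed a mean FPKM of 1 (13287 did), and p-values were adjusted by Benjamini-Hochberg within each of 6 comparisons. A fold change on this scale understates the change of low genes. The procedure was tested on simulated data. For ratios, two-sided exact permutation tests were run (scipy 1.17.1). The planned ratio of SERPINH1 to COL1A1 was not computed, since no row carried that symbol. Named were all members, up to 4 called genes of each list with the largest change, defining genes fixed by name, and the 5 genes most like the mean pattern.

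Replicates were separate rabbits. Samples with the same number did not pair the groups. Alternatives varied the pseudocount (0.1), the filter, the scaling, the samples fitted, the moderation, the test (limma voom on reads counted back), the threshold and the block, and left out each sample.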

Additional observations from a re-analysis of the deposited data

How the results depend on the processing

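The calls of LOXL1, LOXL2, PLOD1 and P4HA3 in HS against NS held in every setting run and without each sample in turn. With 3 samples a group, single samples decided the calls in the treated groups. Each enzyme gene had at least 170 reads in every sample. In all, 472 of the values under other settings kept direction and call, 7 lost a call, 3 gained one and 4 changed sign. Most of these values belong to genes not called in the comparison, which had no call to lose. In 5-Fu injection minus HS, the call was kept in 7 of 9 other settings for LOXL1 and in 6 of 9 for P4HA3. With 1 sample left out, 592 values kept direction and call, 23 lost a call, 8 gained one and 25 changed sign. Without the filter on low values, all genes called numbered 2 for drug-loaded MNs minus HS, 93 for 5-Fu injection minus HS, 1 for drug-loaded MNs minus 5-Fu injection, 51 for drug-loaded MNs minus NS and 2 for 5-Fu injection minus NS, and enzyme genes called in 5-Fu injection minus HS numbered 1. With a mean FPKM of at least 5, enzyme genes called in 5-Fu injection minus HS numbered 4, and all genes called in 5-Fu injection minus NS numbered 3. With only the 2 groups compared in the fit, all genes called numbered 37 for drug-loaded MNs minus HS, 0 for 5-Fu injection minus HS and 0 for 5-Fu injection minus NS, and 0 enzyme genes were called in 5-Fu injection minus HS. With FPKM rescaled to total reads, all genes called numbered 1060 for HS minus NS (311 higher, 749 lower) and 4 (2 higher, 2 lower) for 5-Fu injection minus NS. The sign of LOXL3 then turned, to -0.10 in HS minus NS, 0.082 in drug-loaded MNs minus HS and -0.016 in drug-loaded MNs minus NS, as did that of LOXL4 in drug-loaded MNs minus HS (0.027). For 5-Fu injection minus NS, all genes called numbered 2 with a pseudocount of 0.1 and 3 with quantile normalization. Without a mean-variance trend, all genes called numbered 2 for drug-loaded MNs minus HS and 0 for 5-Fu injection minus NS. With limma voom, 0 genes were called in drug-loaded MNs minus HS, and by adjusted p alone 585 in 5-Fu injection minus HS. Apart from fewer genes or samples entering a fit, the cause was not tested.

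With the replicate number as a block, all genes called numbered 0 for drug-loaded MNs minus HS, 99 for 5-Fu injection minus HS, 23 for drug-loaded MNs minus NS and 0 for 5-Fu injection minus NS. Enzyme genes called under the block numbered 0 for 5-Fu injection minus HS and 1 for drug-loaded MNs minus NS. The numbers share no animal, and deviations of same-numbered samples correlated at 0.06, 0.44 and -0.17 between drug-loaded MNs and HS at -0.04, -0.21 and 0.09 between HS and NS, at -0.12, 0.01 and -0.11 between 5-Fu injection and HS, and at -0.02, 0.18 and 0.03 between the treated groups. All 3 were above 0 between 5-Fu injection and NS (0.20, 0.09 and 0.05) and below 0 between drug-loaded MNs and NS (-0.15, -0.27 and -0.14). The 3 deviations within a group sum to 0, so these correlations are not independent. They cannot decide whether the replicate number marks a batch.

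With 1 sample left out in turn, all genes called ranged from 382 to 749 for HS minus NS, 0 to 2 for drug-loaded MNs minus HS, 0 to 803 for 5-Fu injection minus HS, 0 to 12 for drug-loaded MNs minus 5-Fu injection, 0 to 176 for drug-loaded MNs minus NS and 0 to 20 for 5-Fu injection minus NS. Enzyme genes called ranged from 0 to 5 for 5-Fu injection minus HS, 0 to 3 for drug-loaded MNs minus NS and 0 to 1 for 5-Fu injection minus NS. The log2 difference of LOX ranged from -0.32 to 0.19 in HS minus NS. That of LOXL3 ranged from -0.15 to 0.62 in HS minus NS, -0.43 to 0.34 in drug-loaded MNs minus HS, -0.77 to 0.0070 in 5-Fu injection minus HS, -0.042 to 0.42 in drug-loaded MNs minus NS and -0.37 to 0.089 in 5-Fu injection minus NS. That of LOXL4 ranged from -0.49 to 0.45 in drug-loaded MNs minus HS, -0.96 to 0.047 in 5-Fu injection minus HS and -0.15 to 0.85 in drug-loaded MNs minus 5-Fu injection. That of PLOD2 ranged from -0.44 to 0.22, -0.44 to 0.28 and -0.46 to 0.39 in the same 3 comparisons. That of PLOD1 ranged from -0.047 to 0.64 in drug-loaded MNs minus 5-Fu injection and -0.014 to 0.67 in 5-Fu injection minus NS. None of these was called.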
